A study of Bos taurus with 8 samples.

Results

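The transcriptome of bovine granulosa cells cultured at normal oxygen was described from 4 arrays, NOL 1 to NOL 4, out of 8 arrays in the series. They were chosen by their label alone, 21% oxygen, and no array of the low oxygen group was compared with them. The study asked how oxygen level affects these cells, and the NOL arrays are its untreated side. Granulosa cells (GC) came from small to medium follicles of slaughterhouse ovaries, were thawed from frozen stocks, and were grown on collagen-coated plates for 8 days. The medium was serum-free alpha-MEM with FSH, IGF-I and androstenedione, so all 4 samples carry the hormones that keep GC estrogenic. In the treated group the oxygen was changed from day 6, while the NOL cells stayed at 21% oxygen. Breed, age and number of cows are not given in the labels. Nothing says whether the 4 samples came from separate cultures or cell pools, and the spread among them may therefore be technical. Bulk RNA was measured, in which fewer cells of a type and less RNA per cell cannot be told apart.

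GC line the inner wall of the follicle and nourish the oocyte. Under FSH they take androgens, which theca cells outside the basement membrane make with CYP17A1, and convert them to estradiol with the aromatase CYP19A1. They also secrete inhibins, activins and follistatin. After the LH surge the same cells change into luteal cells, which import cholesterol and turn it into progesterone. Genes of these neighbouring and later states were therefore set beside the GC genes.

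The values were log2 signals of transcript clusters, the probe groups that the array summarises for a gene. A step of 1 is a factor of 2. On the arrays 24415 clusters were measured, of which 18457 carried 1 gene name, 688 several and 5270 none, and the 18457 stood for 18010 genes. A gene with more clusters was represented by its strongest. The 4 arrays had nearly the same distribution, with medians of 4.06 to 4.08, lower quartiles of 2.36 to 2.38 and upper quartiles of 6.10 to 6.13. Pearson's r between 2 arrays over all clusters, a description across features of equally normalised arrays, was 0.9953 to 0.9958. Probes differ in how well they bind, so a rank is a rank of signal and not of transcript number. For the 401 genes with more than 1 cluster, the strongest and weakest cluster of the same gene lay apart by 0.92 in the median, by 1.95 at the upper quartile and by 9.17 at most.

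The file held no detection measure, and a level was set from genes of other tissues. The panel had 84 measured genes of liver, milk, lens, retina, muscle, sperm, pituitary and others, with a median of 2.50, and its 95th percentile was 4.38. Of the 18010 genes, 9408 had a mean over the 4 arrays above this level (52.2%), and 9055 lay above it on all 4 arrays. The median over all genes was 4.54, with quartiles of 2.78 and 6.37. Of the panel itself 5 genes lay above: cardiac troponin TNNI3 at 7.45 ± 0.15 (SD over the arrays, n = 4, as for every ± below), the lens crystallin CRYBB1 at 6.34 ± 0.17, INS at 4.84 ± 0.20, POMC at 4.60 ± 0.064 and MYL2 at 4.43 ± 0.10. A signal a little above the level is thus no proof of a transcript. With the 99th percentile of the panel as the level, 4137 genes lay above it. A low signal is no proof of absence either, since RPS14 of the small ribosomal subunit read 2.75 ± 0.28 and lactate dehydrogenase LDHA 3.93 ± 0.073.

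All 6 genes taken as marks of GC lay above the level on every array. HSD3B1, which converts pregnenolone to progesterone, read 11.46, 11.47, 11.56 and 11.50 on NOL 1 to NOL 4 (mean 11.50 ± 0.045, cluster 12842687) and ranked 7 among the 18010 genes. The neurohypophysial hormone gene OXT, which bovine GC and luteal cells transcribe, read 10.36, 10.51, 10.54 and 10.57 (10.50 ± 0.093, cluster 12717933, rank 65). The inhibin alpha subunit INHA read 10.16, 10.19, 10.12 and 10.08 (10.14 ± 0.048, cluster 12774405, rank 118). These signals were among the strongest named genes, and the arrays differed by no more than 0.21 in any of them.

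Aromatase CYP19A1 read 8.55, 8.76, 8.63 and 8.78 (8.68 ± 0.11, cluster 12688063, rank 726). The FSH receptor FSHR read 8.61, 8.70, 8.65 and 8.60 (8.64 ± 0.045, cluster 12703820, rank 755). The forkhead factor FOXL2, which maintains ovarian identity, read 7.34, 7.64, 7.30 and 7.51 (7.45 ± 0.16, cluster 12678679, rank 2217). The mean of FOXL2 equalled that of TNNI3 (7.45 ± 0.15), the highest gene of the off-tissue panel. None of the 6 genes had an array that stood apart from the other 3. FOXL2 had the widest spread of the 6, and FSHR and HSD3B1 the narrowest.

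**Figure D1:**
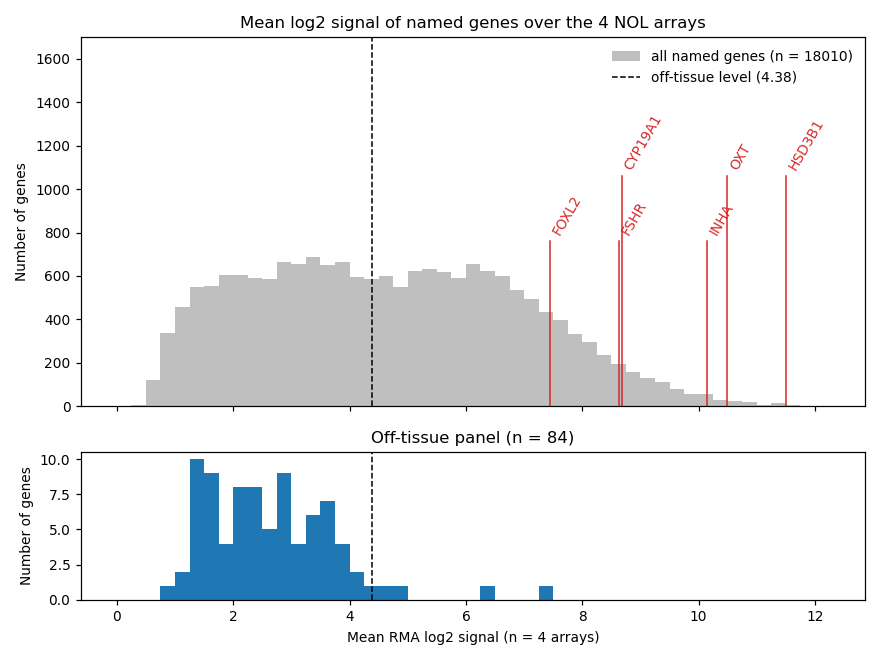
Number of named genes (vertical) by mean RMA log2 signal over the 4 NOL arrays (horizontal), for all 18010 genes above and for the 84 off-tissue genes below. The dashed line is the off-tissue level of 4.38, and the red lines mark the 6 GC genes, all of which lie to its right between 7.45 and 11.50.

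The wider GC list had 26 measured genes, of which 22 (84.6%) lay above the level, against 52.2% of all genes. Its median was 8.58, and its median on a single array ran from 8.48 to 8.65. The activin subunit INHBA read 11.44 ± 0.031, the protease inhibitor SERPINE2 11.31 ± 0.039, the gap junction connexin GJA1 11.14 ± 0.041 and follistatin FST 10.64 ± 0.056. GSTA1, a glutathione transferase abundant in steroid-making cells, read 10.52 ± 0.078, and N-cadherin CDH2 10.41 ± 0.033. In the middle of the list stood the nuclear receptor NR5A2 at 9.17 ± 0.033, the second activin subunit INHBB at 8.72 ± 0.15 and kit ligand KITLG at 7.52 ± 0.15.

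At the lower end of the GC list, anti-Müllerian hormone AMH read 5.58 ± 0.12 and the estradiol-forming dehydrogenase HSD17B1 4.68 ± 0.29. HSD17B1 read 4.41 and 4.45 on NOL 1 and NOL 3 and 4.88 and 4.98 on NOL 2 and NOL 4, so that all 4 arrays lay only just above the level. The 4 genes below it were WT1 (3.98 ± 0.099), NR0B1 (3.13 ± 0.17), IHH (2.42 ± 0.084) and VIT (2.01 ± 0.27). IHH is the hedgehog ligand that, in the mouse, GC of growing follicles send to theca.

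Theca genes lay above the level about as often as all genes. Of 17 measured, 8 (47.1%) did, against 52.2% of all genes, and the list's median was 4.00. CYP17A1, the enzyme that makes thecal androgens, read 3.20, 3.42, 3.31 and 3.58 (3.38 ± 0.16), below the level on every array. The LH receptor LHCGR read 4.64, 4.60, 4.39 and 4.40 (4.51 ± 0.13), just above it. The insulin-like hormone INSL3, made by theca cells in the ovary, read 7.17, 7.51, 7.46 and 7.63 (7.44 ± 0.20). INSL3 was above the level on every array, and its mean was near that of TNNI3 (7.45 ± 0.15), a gene of the off-tissue panel. The same holds for the GC gene FOXL2 (7.45 ± 0.16).

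The strongest signals of the theca list were those of matrix proteoglycans and stromal genes. Lumican LUM read 11.30 ± 0.054 and ranked 15 among all genes, decorin DCN read 8.54 ± 0.16 and the growth factor receptor PDGFRA 7.39 ± 0.14. The hedgehog receptor PTCH1 read 5.87 ± 0.061 and the surface protein THY1 5.45 ± 0.46. The peptidase MME (1.56 ± 0.057) and dermatopontin DPT (2.23 ± 0.28) had the lowest signals. Which cells gave the LUM, DCN and INSL3 signals was not tested.

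Luteal genes lay high as a group. Of 19 measured, 16 (84.2%) were above the level, against 52.2% of all genes, with a median of 6.63. TIMP1, a metalloproteinase inhibitor secreted by luteal cells, had the highest signal of all named genes at 11.70, 11.75, 11.77 and 11.77 (11.75 ± 0.033). The cholesterol side chain cleavage enzyme CYP11A1 read 10.85, 10.85, 10.99 and 10.95 (10.91 ± 0.071, rank 30), and the lipoprotein receptor SCARB1 10.69, 10.73, 10.84 and 10.70 (10.74 ± 0.069, rank 42). HSD3B1 and OXT belong to this list as well as to the GC list, so part of the 2 counts is shared. TIMP1 is also in the matrix list, and CYP11A1 and SCARB1 are also in the steroid list. With the level at the 99th percentile of the panel, 10 of the 19 luteal genes lay above it.

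The other luteal genes covered a wide range. The angiogenic factor VEGFA read 9.50 ± 0.074 and the aldose reductase AKR1B1, which also makes prostaglandin F in cattle, 8.74 ± 0.076. The prostaglandin F receptor PTGFR read 6.45 ± 0.075 and the progesterone receptor PGR 5.91 ± 0.082. The cholesterol carrier STAR was found only on a cluster shared with 2 other gene names, which read 8.48, 8.43, 8.86 and 8.81 (8.64 ± 0.22). The prolactin receptor PRLR (1.71 ± 0.12) and the chemokine CCL2 (1.67 ± 0.15) were lowest. Among genes of the ovulatory cumulus matrix 7 of 11 (63.6%) lay above the level, against 52.2% of all genes. Versican VCAN (10.26 ± 0.025) and TNFAIP6 (9.82 ± 0.095) led them. The EGF-like ligand EREG (4.46 ± 0.21) lay just above the level, though not on NOL 2 (4.17). The EGF-like ligands AREG (1.50 ± 0.14) and BTC (1.94 ± 0.10) and the gene HAS2 (3.54 ± 0.52) lay below it.

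Oocyte genes were at the level of the off-tissue panel. Of 27 measured, 3 (11.1%) lay above, against 52.2% of all genes, and the median was 2.68. The oocyte growth factors GDF9 (2.33 ± 0.089) and BMP15 (2.99 ± 0.089) and the zona pellucida genes ZP2 (2.20 ± 0.14) and ZP3 (2.58 ± 0.095) all lay below the level. The 3 exceptions were the ubiquitin hydrolase UCHL1 at 10.02, 10.01, 10.03 and 10.07 (10.03 ± 0.026, rank 140), the receptor KIT at 7.56, 7.50, 7.66 and 7.64 (7.59 ± 0.074), and SOHLH1 at 4.47 ± 0.085. UCHL1 and KIT are also transcribed in other tissues. The 2 lowest members were the germ cell helicase DDX4 (0.94 ± 0.078) and OOSP2 (1.00 ± 0.084).

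Other cell types of the ovary were compared in the same way. Of 14 endothelial genes 2 (14.3%) lay above the level, against 52.2% of all genes. They were ENG (5.46 ± 0.082) and EGFL7 (4.45 ± 0.23), while PECAM1 (2.43 ± 0.17) and CDH5 (2.85 ± 0.072) were below. Of 16 leukocyte genes 1 (6.25%) lay above it, CD68 at 4.53 ± 0.17, with the pan-leukocyte gene PTPRC at 1.91 ± 0.17. None of 9 red cell genes did, the highest being the globin gene HBA at 3.47 ± 0.16. Without NOL 2, 1 endothelial gene and 2 leukocyte genes lay above the level.

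Stromal and epithelial lists were counted against the 52.2% of all genes above the level. Of 17 smooth muscle and fibroblast genes 11 (64.7%) lay above it, led by collagen COL3A1 (8.80 ± 0.093), tropomyosin TPM1 (8.15 ± 0.11) and COL1A2 (7.91 ± 0.18), while smooth muscle myosin MYH11 read 4.01 ± 0.19 and the fibroblast protease FAP 1.86 ± 0.079. Of 12 genes of the ovarian surface epithelium 6 (50.0%) did, with the uroplakin UPK1B at 8.73 ± 0.090, keratin KRT8 at 6.80 ± 0.25 and cadherin CDH1 at 6.14 ± 0.14, against KRT7 at 2.66 ± 0.20 and EPCAM at 1.62 ± 0.088. With the level at the 99th percentile of the panel the counts were 5 and 2. In both lists the genes above the level include ones that many cultured cells transcribe.

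**Figure D2:**
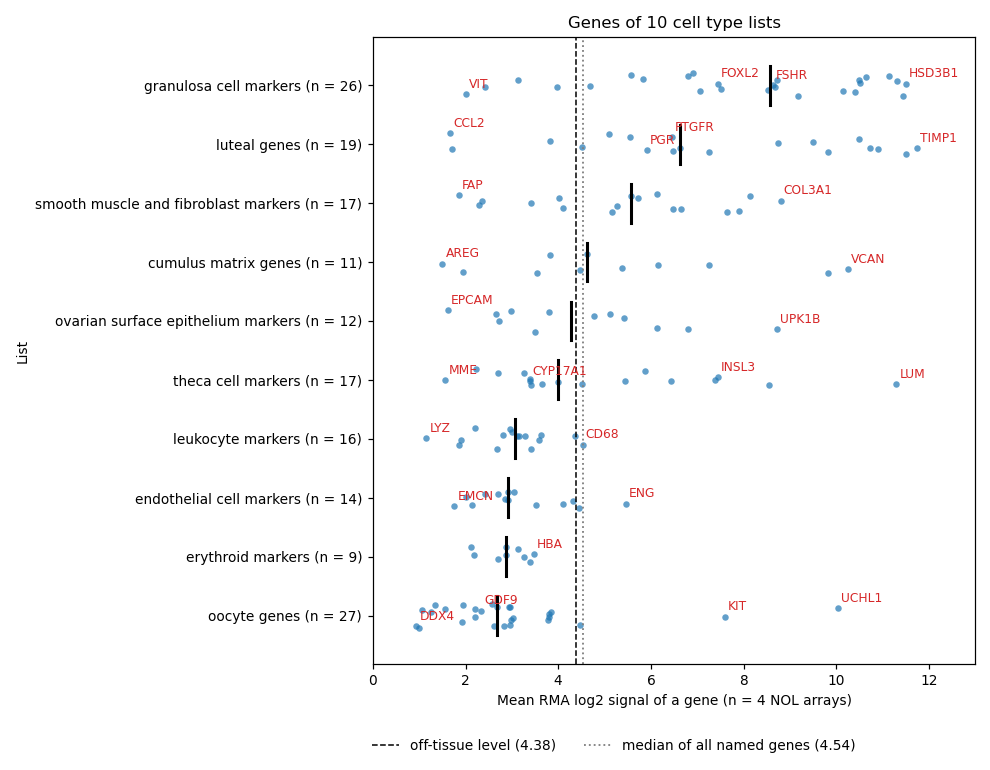
Mean RMA log2 signal over the 4 NOL arrays (horizontal) of each measured gene (point) in 10 cell type lists (rows), with the median of a list as a black bar. GC genes have the highest median, 8.58, followed by luteal genes at 6.63, and oocyte genes the lowest, 2.68, with UCHL1 and KIT far to the right of the other oocyte genes.

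The strongest named signals encoded matrix and secreted proteins, cytoskeleton, glycolytic enzymes, ribosomal proteins and GC products. The 100 highest genes had means of 10.21 or more, and 59 of them belonged to a list. Ribosomal proteins gave 13 of the 100, GC markers 8, extracellular matrix genes 8, chaperones 7, and cytoskeleton, glycolysis and luteal genes 5 each. These lists held 40, 26, 51, 24, 33, 18 and 19 measured genes in that order, with some genes in more than 1 list. After TIMP1 came beta actin ACTB (11.74 ± 0.041), the matrix glycoprotein SPARC (11.73 ± 0.029), GAPDH (11.63 ± 0.017), the fatty acid desaturase SCD (11.59 ± 0.034) and gamma actin ACTG1 (11.58 ± 0.032). HSD3B1 and INHBA followed at ranks 7 and 8.

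The hypoxia-inducible factor HIF1A read 11.46, 11.43, 11.37 and 11.35 (11.40 ± 0.051) and ranked 10, in cells kept at 21% oxygen. HIF1A is controlled in large part through the stability of its protein, which was not measured here. Among the next in rank were the proteoglycan core SRGN (11.37 ± 0.036), enolase ENO1 (11.32 ± 0.024), the mitochondrial ADP/ATP carrier SLC25A6 (11.30 ± 0.064), the milk fat globule protein MFGE8 (11.27 ± 0.016), IGFBP7 (11.27 ± 0.026) and thymosin TMSB10 (11.27 ± 0.017). SERPINE2, LUM and CLCA3 lay between these. TMEM254 (11.42 ± 0.040), TMEM176A (11.06 ± 0.098) and TMEM176B (10.89 ± 0.062) are membrane proteins that belonged to no list. CLCA3 read 11.30 ± 0.088, and its span overlaps that of ODF2L in RefSeq, so that the cluster may not belong to CLCA3 alone.

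Names limited this ranking. The 3 strongest clusters of all, at 12.39, 12.39 and 12.32, had no name, and of the 100 strongest clusters 56 had 1 name, 14 several and 30 none. When all clusters were ranked together, 55 of the 100 named genes stayed among the 100. Of those 100 genes, 7 had provisional names and 5 were pseudogenes in RefSeq. LOC281806, for which RefSeq gives GSTP1 as a synonym, read 10.48 ± 0.024, while the cluster named GSTP1 read 2.09 ± 0.086.

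**Figure D3:**
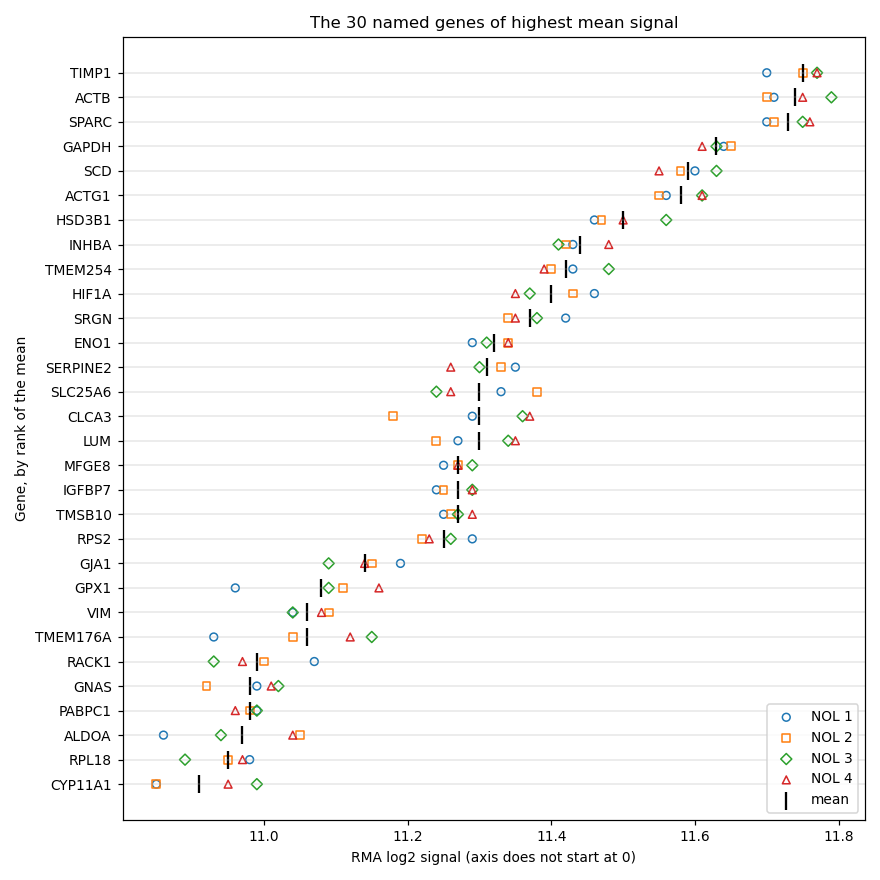
RMA log2 signal (horizontal, axis not from 0) on NOL 1 to NOL 4 (symbols) of the 30 named genes of highest mean (rows, black bar for the mean). Means run from 11.75 for TIMP1 to 10.91 for CYP11A1, and the symbols of neighbours in rank often overlap.

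Genes of the steroid pathway were read from cholesterol uptake to estradiol. Of 23 measured genes 20 (87.0%) lay above the level, with a median of 6.98. Here and in the lists that follow, the 52.2% of all genes is the share to compare. Besides HSD3B1, CYP11A1 and SCARB1, the electron donor POR read 9.24 ± 0.044 and ferredoxin FDX1, which serves CYP11A1, 7.76 ± 0.11. Among dehydrogenases that interconvert estrone and estradiol or act on related substrates, HSD17B12 read 8.57 ± 0.11 and HSD17B4 7.56 ± 0.062, against 4.68 for HSD17B1. CYP17A1, AKR1C3 (1.86 ± 0.25) and the estrogen sulfotransferase SULT1E1 (1.24 ± 0.17) were the 3 genes not above the level.

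All 18 measured genes of cholesterol synthesis lay above the level, with a median of 8.17. The last reductase DHCR7 read 10.42 ± 0.065 and ranked 70, MSMO1 read 10.21 ± 0.042, and the squalene enzymes FDFT1 and SQLE 9.38 ± 0.039 and 9.30 ± 0.064. The mevalonate enzymes PMVK (5.40 ± 0.073) and MVD (6.54 ± 0.090) were lowest. HMGCS1 stood only on a cluster of several names, at 10.70 ± 0.080. Genes of lysosome and lipid handling were alike in level, 29 of 30 above it with a median of 8.65, led by SCD, cathepsin CTSD (10.54 ± 0.084), CD63 (10.08 ± 0.079), the desaturase FADS2 (9.90 ± 0.026) and LAMP2 (9.80 ± 0.070).

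The hormone pathways supplied by the medium were represented from receptor to effector. For FSH and cAMP, 16 of 23 genes (69.6%) lay above the level, against 52.2% of all genes, with a median of 6.68. The G protein subunit GNAS read 10.98 ± 0.045, the kinase SGK1 9.82 ± 0.19, the regulatory kinase subunit PRKAR2B 9.64 ± 0.14 and PRKAR1A 8.15 ± 0.048. The adenylyl cyclase with the highest signal was ADCY6 (7.02 ± 0.095), and ADCY7 was lowest in the list, below the phosphodiesterase PDE7A (2.76 ± 0.073).

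For IGF and insulin, 16 of 20 genes (80.0%) lay above the level, against 52.2% of all genes, with a median of 6.38. The receptor IGF1R read 8.92 ± 0.062 and INSR 6.70 ± 0.082, the kinase subunit PIK3R1 10.58 ± 0.015 and FOXO1 8.69 ± 0.096. Of the ligands, IGF2 read 6.44 ± 0.029 and IGF1 2.40, 2.52, 2.53 and 2.43 (2.47 ± 0.065). The binding protein IGFBP5 read 10.33 ± 0.074, whereas IGFBP1 read 3.72 ± 0.18 and the adaptor IRS2 3.76 ± 0.091. The receptor signals were thus above the level in cells whose own IGF1 signal was below it.

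In the inhibin, activin, AMH and BMP family, 30 of 32 genes (93.8%) lay above the level, with a median of 6.48. The secreted follistatin-like FSTL3, which binds activin, read 8.12 ± 0.17. Of the receptors BMPR2 read 8.84 ± 0.041, BMPR1A 8.07 ± 0.060, BMPR1B 7.58 ± 0.051 and AMHR2 5.84 ± 0.064. SMAD4, the partner shared by these receptors' SMADs, read 10.07 ± 0.084. TGFB2 (4.07 ± 0.14) and the activin receptor ACVR2B (4.27 ± 0.17) were not above the level.

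Of 21 nuclear receptors and transcription factors 17 (81.0%) lay above the level, with a median of 6.43. GATA6 read 9.28 ± 0.073 and GATA4 7.05 ± 0.16. NR5A1, a regulator of steroid genes, read 6.91 ± 0.064, and the estrogen receptors ESR2 and ESR1 6.80 ± 0.048 and 5.61 ± 0.11. RUNX2 read 8.53 ± 0.20 and RUNX1 7.68 ± 0.15. SOX9, a factor of testis development, read 6.06 ± 0.068 and DMRT1 3.44 ± 0.19. These genes have different probes, so their levels were not ranked.

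Machinery that every cell uses lay high. Of 40 measured ribosomal protein genes 38 were above the level with a median of 9.58, led by RPS2 (11.25 ± 0.032), RACK1 (10.99 ± 0.059) and RPL18 (10.95 ± 0.040). Of 82 names in that list only these 40 genes had a cluster of their own. Of 24 chaperones all lay above, with a median of 9.88, the highest of all lists, and PDIA3 (10.79 ± 0.034), HSPB1 (10.78 ± 0.10), HSPA5 (10.73 ± 0.092), P4HB (10.69 ± 0.050) and CANX (10.66 ± 0.058) at its head.

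Translation factors (20 of 21, median 9.20), proteasome genes (25 of 25, 8.43), respiratory chain genes (46 of 47, 8.38) and glycolytic genes (17 of 18, 8.38) followed. The poly(A)-binding protein PABPC1 read 10.98 ± 0.014, COX8A of the respiratory chain 10.32 ± 0.064, ATP5F1B of ATP synthase 10.23 ± 0.069 and the glycolytic ALDOA 10.97 ± 0.090. Antioxidant genes (31 of 33, median 8.04) were led by the glutathione peroxidases GPX1 (11.08 ± 0.085) and GPX4 (10.15 ± 0.051), with GSTA1 between them. Of 23 genes that respond to hypoxia 21 lay above the level at 21% oxygen, with a median of 7.81, among them BNIP3 (9.74 ± 0.23) and VEGFA (9.50 ± 0.074), while the carbonic anhydrases CA9 (3.13 ± 0.24) and CA12 (2.98 ± 0.16) did not.

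Matrix genes covered a wide range. Of 51 measured 42 (82.4%) lay above the level, with a median of 6.91, and TIMP1, SPARC, SERPINE2 and LUM came first, then TIMP2 (10.88 ± 0.099). Cathepsin CTSL (2.95 ± 0.073) and SPARCL1 (2.98 ± 0.27) were lowest. Of 33 cytoskeletal genes 32 lay above, with a median of 8.15, vimentin VIM (11.06 ± 0.026) following the actins and TMSB10.

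Genes of DNA replication and mitosis were above the level but not strong. Of 40 measured, 37 (92.5%) lay above, with a median of 5.86. Cyclin CCND2, which FSH induces in GC of rodents, was by far the highest at 10.06 ± 0.050, followed by PCNA (7.53 ± 0.043), TK1 (7.09 ± 0.13), RRM1 (7.08 ± 0.051) and CCND3 (6.84 ± 0.10). The proliferation gene MKI67 read 4.99 ± 0.18 and CDK1 4.78 ± 0.12, and the replication licensing gene CDC6 was lowest at 4.08 ± 0.21.

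Of 30 immediate-early genes 22 (73.3%) lay above the level, against 52.2% of all genes, with a median of 6.50. Among them were DUSP1 (8.80 ± 0.19) and EGR1 (8.28 ± 0.062), while NR4A3 (2.68 ± 0.10) was not. Of 22 interferon-response genes 11 (50.0%) lay above it, near the share of all genes, with a median of 4.18. This was the only list of the 21 pathway and state lists with a median below that of all genes. IFI6 (9.50 ± 0.21) and IFI27 (7.86 ± 0.17) led it, and IFIT2 (0.90 ± 0.056) was lowest.

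Among the arrays most genes were tight. The median SD of the 9408 genes above the level was 0.085 and its 95th percentile 0.19, and genes not above the level had a median SD of 0.129. CCNI read 10.65, 10.65, 10.65 and 10.66, NDUFV1 of the respiratory chain had an SD of 0.0058, RNF7 and SLC18B1 of 0.0050 each, and HSPA14 read 7.33 on all 4 arrays. The values have 2 decimals, which limits the smallest SD. Of the genes above the level 58 had an SD over 0.3, which is 0.616%.

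TXNIP had the widest spread of all genes above the level. This alpha-arrestin limits glucose uptake and binds thioredoxin. It read 6.42, 7.12, 8.11 and 8.43 (7.52 ± 0.92), so that NOL 4 was 4.03-fold above NOL 1. Its relative ARRDC4 read 5.96, 6.38, 7.04 and 7.24 (6.65 ± 0.59). Both were lowest on NOL 1 and highest on NOL 4, while their relative ARRDC3, at 7.43, 7.33, 7.23 and 7.33 (7.33 ± 0.082), was not.

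Genes of the amino acid response had the opposite order. These genes are switched on by the factor ATF4 when amino acids run short or the endoplasmic reticulum is stressed. The pseudokinase TRIB3 read 5.61, 5.58, 4.74 and 4.42 (5.09 ± 0.60), the cystine transporter SLC7A11 8.09, 7.58, 7.06 and 6.89 (7.40 ± 0.54), and the glutamine transporter SLC1A5 7.38, 7.28, 6.46 and 6.44 (6.89 ± 0.51). All 3 were highest on NOL 1 and lowest on NOL 4. The serine synthesis genes PSPH (7.99, 7.69, 7.19 and 7.11) and PSAT1 (9.34, 9.13, 8.70 and 8.58), the folate enzyme ALDH1L2 (8.71, 8.38, 8.02 and 7.77) and the stress factor DDIT3 (6.12, 5.92, 5.54 and 5.24) had the same extremes. SLC1A5 and PSPH were not in the amino acid response list. They belonged only to lists of amino acid transporters and of serine and one-carbon synthesis that were added after the values were seen.

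The whole list of amino acid and unfolded protein response had 28 measured genes, all above the level, with a median of 8.06. Its members were chosen with earlier results of these data known, so the counts that follow are a description only. Of the 28, 15 were highest on NOL 1 and lowest on NOL 4, against 7.79% of the 9408 genes above the level. The reverse extremes were seen in 2 of the 28, TXNIP and ARRDC4, against 10.9% of the 9408. Of the 28, 10 had an SD over 0.3, with the alpha-arrestins TXNIP (0.92) and ARRDC4 (0.59) among these 10. The median deviation of the list's genes from their own means was 0.23, 0.13, -0.12 and -0.24 on NOL 1 to NOL 4, while over all genes above the level it stayed within 0.01 of 0.

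The spread differed from gene to gene within the list. ATF4 itself read 10.16, 10.05, 9.81 and 9.69 (9.93 ± 0.22), asparagine synthetase ASNS 9.71, 9.64, 9.32 and 9.23 (9.48 ± 0.24) and the glutathione-degrading CHAC1 8.47, 8.47, 8.06 and 7.71 (8.18 ± 0.37). Of the genes of the unfolded protein response, XBP1 read 9.70, 9.76, 9.79 and 9.68 (9.73 ± 0.051), DNAJB9 had an SD of 0.025 and SDF2L1 of 0.12. HERPUD1, a factor of protein degradation at the endoplasmic reticulum, read 9.33, 9.29, 9.09 and 9.02 (9.18 ± 0.15). The chaperone HSPA5 read 10.86, 10.73, 10.67 and 10.66 (10.73 ± 0.092), and both were highest on NOL 1 and lowest on NOL 4. The stress-induced DDIT4 (7.84 ± 0.070), the transporter SLC38A2 (10.15 ± 0.077) and the serine and glycine enzyme SHMT2 (9.52 ± 0.076) had SDs under 0.1. CTH of cysteine synthesis stood on 2 clusters shared with another name, which read 6.14, 6.00, 5.63 and 5.24 and 6.36, 5.98, 5.55 and 5.36.

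The charging enzymes of tRNA were added after these values were seen, and are given as a description. Of 17 measured, 9 had an SD over 0.15, against 12.6% of all genes above the level: GARS1 (9.61, 9.38, 9.04 and 8.93), CARS1, TARS1, WARS1, SARS1, AARS1, MARS1, YARS1 and IARS1, with SDs of 0.31 down to 0.17. The other 8, VARS1, RARS1, FARSA, HARS1, EPRS1, LARS1, QARS1 and KARS1, had SDs of 0.091 down to 0.025, and KARS1 read 9.27, 9.29, 9.23 and 9.27. The spans of MARS1 and DDIT3 overlap in RefSeq, so that these 2 may share signal. Of 30 amino acid transporters, added in the same way, 21 lay above the level (70.0%, against 52.2% of all genes) and 7 of them were highest on NOL 1 and lowest on NOL 4, against 7.79% of all genes above the level, among them SLC6A9 (8.29, 8.23, 7.79 and 7.45) and SLC1A4 (8.43, 8.29, 7.80 and 7.64).

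Beyond these lists, the kinase gene PIK3CG (6.09, 5.90, 5.31 and 5.02), LRRN1 (5.40, 5.48, 4.64 and 4.54), N4BP2L1 (6.05, 5.79, 5.35 and 4.96) and the mitochondrial PCK2 (7.29, 7.32, 6.49 and 6.62) were also higher on NOL 1 and NOL 2 than on NOL 3 and NOL 4. LOC100139670 (6.12, 5.96, 5.12 and 5.26) was likewise lower on NOL 3 and NOL 4. MIR2330, whose span lies on TEAD2 in RefSeq, read 5.08, 4.14, 5.68 and 5.08 (4.99 ± 0.64) and did not share the order. Neither did LOC783070, at 5.76, 4.60, 5.40 and 5.17 (5.23 ± 0.49). Of the 58 genes with an SD over 0.3, 23 were highest on NOL 1 and lowest on NOL 4, against 7.79% of all genes above the level. The reverse held for 8, against 10.9%, and 27 had neither order. Of the 58, 10 belonged to the amino acid list, TXNIP and ARRDC4 among them. Together with the 4 lists added after the values were seen it was 16, out of 68 such genes above the level. Those lists followed from the spread, and the amino acid list was chosen with earlier results of these data known. Both the 10 and the 16 are therefore a description only.

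**Figure D4:**
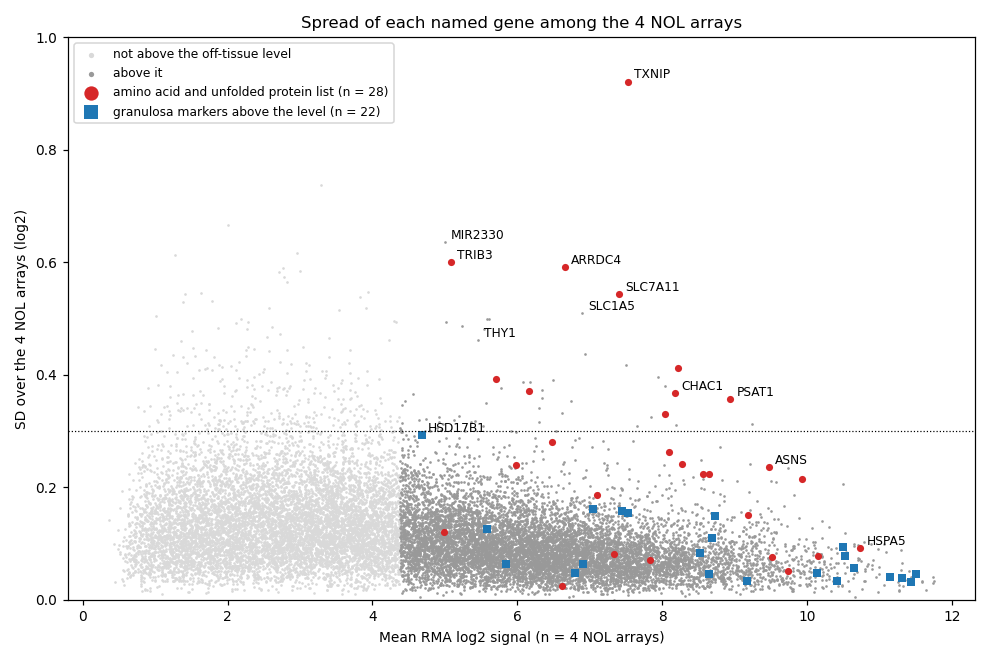
SD over the 4 NOL arrays (vertical, log2) against mean RMA log2 signal (horizontal) of each named gene, with the dotted line at 0.3. The 22 GC markers above the level (squares) lie below the line, up to 0.29 for HSD17B1. Of the 28 genes of the amino acid and unfolded protein list (red), 10 lie above it. Among these 10 are the alpha-arrestins TXNIP, highest at 0.92, and ARRDC4.

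In several lists the median deviation ran the other way. The alpha-arrestins, added after the values were seen (4 of 6 above the level, among them TXNIP and ARRDC4), had median deviations of -0.39, -0.14, 0.15 and 0.36 on NOL 1 to NOL 4. Theca, cytoskeleton, matrix and replication genes deviated by less. Their median deviations were -0.11, -0.01, 0.05 and 0.10 for theca genes, -0.11, -0.04, 0.06 and 0.09 for the cytoskeleton, -0.09, -0.03, 0.05 and 0.06 for the matrix and -0.09, -0.03, 0.04 and 0.11 for replication and mitosis. Of matrix genes above the level 14 of 42 were lowest on NOL 1 and highest on NOL 4, and of replication genes 10 of 37, against 10.9% of all. THY1 (4.94, 5.21, 5.68 and 5.97) and TAGLN (5.26, 5.33, 5.68 and 6.02), genes of stromal and contractile cells, had the same extremes. The log2 of the summed signal of the 17 theca genes, of which 8 lay above the level and CYP17A1 did not, was 11.72 to 11.86. Most of this sum was LUM, which alone read 11.27, 11.24, 11.34 and 11.35 on NOL 1 to NOL 4. For the 17 smooth muscle and fibroblast genes, of which 11 lay above the level, it was 10.62 to 10.79. The part of theca or stromal cells in the order of the arrays was not tested.

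Median deviations of the GC identity, luteal and steroid lists were small. The median deviation of the GC list stayed between -0.03 and 0.03, that of luteal genes between -0.01 and 0.02 and that of the steroid list between -0.03 and 0.01. Of the 22 GC genes above the level 1 was highest on NOL 1 and lowest on NOL 4, against 7.79% of all genes above the level. The reverse held for 6 of the 22, a larger share than the 10.9% of all genes above the level. None of the 22 had an SD over 0.3. In a principal component analysis of the genes above the level, 4 arrays leave only 3 components. They held 49.4%, 28.8% and 21.8% of the variance among the 4 arrays. The first had scores of -9.60, -2.14, 5.44 and 6.30, and TRIB3 and TXNIP led its opposite ends. Genes were not scaled, so those with a large SD weigh most. Over all clusters the first 3 components were nearly equal, at 35.8%, 34.9% and 29.4%. The labels give no hybridisation or culture batch with which this axis could be compared.

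**Figure D5:**
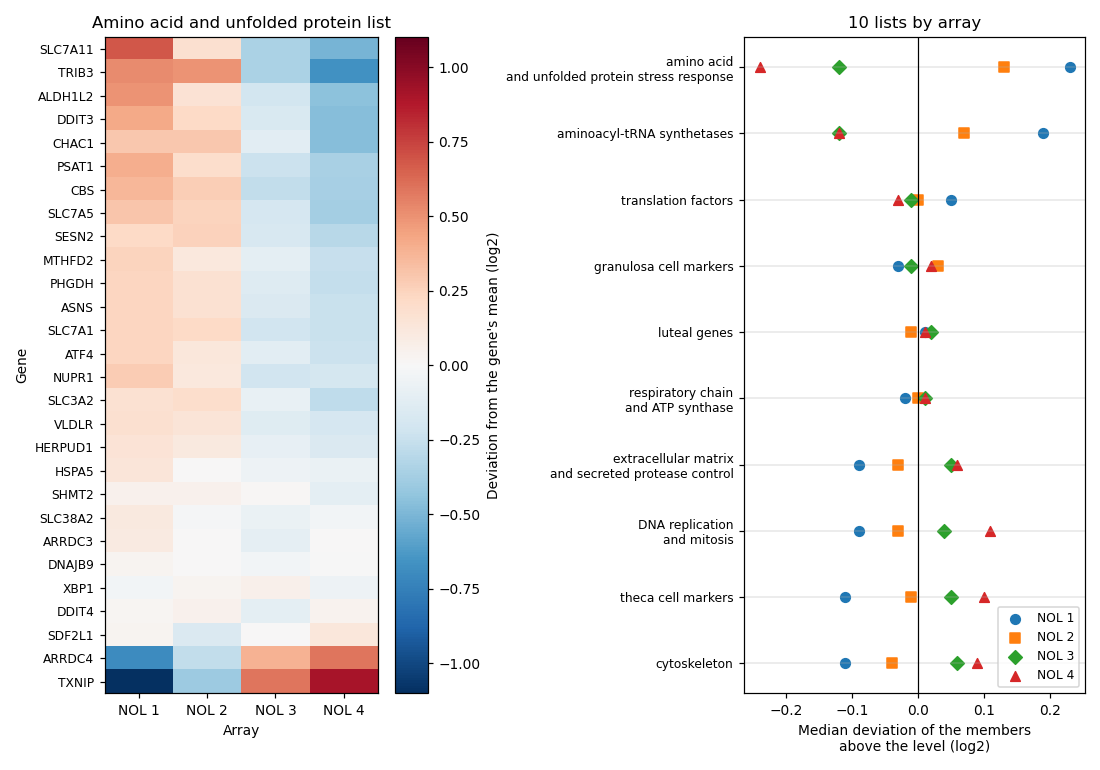
Left, deviation of each of the 28 amino acid and unfolded protein genes (rows) from its own mean (colour, log2) on the 4 NOL arrays. Right, median deviation (horizontal, log2) of the members above the level of 10 lists (rows) on each array (symbols): the amino acid list runs from 0.23 on NOL 1 to -0.24 on NOL 4, and GC and luteal genes stay within 0.03 of 0.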

How the data were processed

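RNA of 8 GC samples was measured on 1-colour Affymetrix Bovine Gene ST arrays, and the 4 NOL arrays were used. The deposited log2 signals had been made by the authors with RMA (background correction, quantile normalisation and probe summary over all 8 arrays together), so the quartiles of the arrays are alike by construction. Gene names came from the platform annotation, updated through RefSeq gene identifiers. Genes of several clusters took the cluster with the highest mean. The 933 listed names matched 792 genes with a cluster of 1 name. The off-tissue level, ranks, list medians, SDs and principal components were computed with Python 3.11.15, pandas 2.3.3 and numpy 2.4.6, and the code was tested on simulated data. An array was taken to stand apart when its gap to the nearest other exceeded 0.829 of the range. Alternatives were leaving out each array, other normalisations, other levels and other summaries. With 1 group no test was made, and the number of arrays limits the precision. Named were the GC markers, the 30 strongest genes, the strongest and weakest of each list, the 15 widest and 5 narrowest genes, and others from the lists after their values were seen. Members and lists were chosen with earlier results of these data known.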

Additional observations from a re-analysis of the deposited data

Results flagged for a closer look

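Counted were 231 genes named in the text, without LOC100139670, LOC783070, EREG and HAS2. Of these 231, 11 had an array whose gap to the nearest of the other 3 was a large part of the gene's range. Chance alone gives about 1 in 20. NOL 3 stood apart in 5 of them, NOL 2 in 3, NOL 4 in 2 and NOL 1 in 1. FST read 10.56 on NOL 3 against 10.66 to 10.68 on the others, and DDIT4 7.73 on NOL 3 against 7.86 to 7.88. The folate enzyme MTHFD1L was low on NOL 3 at 7.36. The activin receptor gene ACVR2B was high on NOL 3 at 4.52. The endothelial gene EGFL7 was high on NOL 2 at 4.80, and only there above the off-tissue level. PDIA3 was low on NOL 2 at 10.74 against 10.80 to 10.81, CTSD was low on NOL 1 at 10.41, and OOSP2, below the level, was high on NOL 2 at 1.13. CCNI (10.66 on NOL 4), SLC18B1 (4.67 on NOL 4) and RNF7 (6.72 on NOL 3) differed from the others by 0.01, the last decimal of the values. Over all 9408 genes above the level, 514 (5.46%) had such an array, NOL 1 in 196 of them.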

How the results depend on the processing

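Leaving out each array in turn gave 9268 to 9465 genes above the off-tissue level, kept 97 to 98 of the 100 strongest genes, and gave 522 to 524 of the 584 pathway genes above the level, 54 to 86 genes with an SD over 0.3 and a lowest r of 0.9953 to 0.9954. The counts for GC (22), theca (8), luteal (16) and oocyte genes (3) did not move, while without NOL 2 endothelial genes went from 2 to 1 and leukocyte genes from 1 to 2. The amino acid genes highest on NOL 1 and lowest on NOL 4 were 18 without NOL 3 and 19 without NOL 2, since fewer arrays then compete, and have no value without NOL 1 or NOL 4. Quantile normalisation and median centring of the 4 arrays gave 14 and 13 such genes. The level mattered more: with the 99th percentile of the panel 4137 genes, 4 theca, 10 luteal, 3 cumulus matrix (from 7), 5 smooth muscle and fibroblast (from 11), 2 surface epithelium (from 6) and 0 endothelial or leukocyte genes lay above it, and with a log2 signal of 6, 5475 genes and 5 theca genes. GC genes above the level were then 19 and oocyte genes 2 under either. With every cluster ranked, 55 of the 100 strongest genes stayed, as unnamed and several-name clusters took places. The mean over the clusters of a gene moved 11 of 231 named genes by over 1 SD, among them GAPDH to 7.05, GNAS to 7.20 and PGR to 4.45. No paired analysis was possible because only 1 group was described. The values carry no depth, detection call or background signal, and the number of arrays limits their precision.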

Other observations

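Several genes of high signal stood only on clusters with several names and entered no count. Ferritin light chain FTL, which stores iron, was named on 2 such clusters at 11.02 ± 0.040 and 10.95 ± 0.030, the ribosomal protein RPL10 on one at 11.72 ± 0.020, and the elongation factor EEF1G on 2 at 10.97 ± 0.090 and 10.28 ± 0.050. The mitophagy receptor BNIP3L read 10.15 ± 0.050 on a shared cluster. In one-carbon metabolism the mitochondrial SHMT2 (9.52 ± 0.076) and MTHFD1L (7.47 ± 0.074) lay above the level with little spread, and the cytosolic SHMT1 (2.64 ± 0.12) below it.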
